A study of Mus musculus with 6 samples.

Results

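The 38 genes described here encode the proteins that copy DNA in S phase and the factors that admit a cell to it. They were chosen by gene symbol, and all 38 were found among the 27240 genes of the deposited table, each on 1 row. Transcripts were counted by poly(A) RNA-seq in primary macrophages of the mouse peritoneum, phagocytes of the abdominal cavity. There were 3 libraries of knockout (KO) cells and 3 of wild-type (WT) cells. All 6 libraries, KO and WT, came from cells whose labelled treatment is oxLDL, oxidised low-density lipoprotein, which macrophages take up through scavenger receptors. The series title names the kinase DCLK1 in macrophages, while the genotype label reads only KO or WT. The labels state no deleted exon, Cre driver, strain, sex, age, oxLDL dose or time, and do not say whether the replicates of a group were separate animals or cultures. P-values therefore measure only the spread between these libraries, which may be technical. The comparison asks which of these transcripts differ between oxLDL-treated macrophages of the 2 genotypes, and no library without oxLDL was analysed here.

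DNA replication begins with licensing, in which the origin recognition complex, Cdc6 and Cdt1 load the ring of Mcm proteins onto DNA. Cdc45, the GINS complex and Mcm10 then turn that ring into an active helicase, polymerases copy the strands behind it, and the sliding clamp PCNA holds the polymerases in place. E2F transcription factors, set free by cyclin-dependent kinases, are known to switch on many of these genes when a cell leaves the resting state. Resident peritoneal macrophages are mostly resting cells that can renew themselves by division in the cavity. Whether the macrophages used here were resident or recruited was not tested.

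A sequence feature that the choice of genes did not use, the E2F site, stood in the promoters of some of them, and its copies are shown because this element is known to drive S phase transcription. RefSeq promoter windows (GRCm38.p6, 250 bases before to 50 after the start) were matched for 32 of the 38 genes, with the window nearest the deposited gene start taken where there were several. The RefSeq start lay up to 539 bases (Mcm7) from the deposited one, with 466 for E2f1, 350 for Cdc6 and 224 for Fen1. Some matches below, among them those of Cdc6 and Mcm7, lie inside the deposited gene. Ccne2, Gins1, Gins2, Gins4, Mcm4 and Pole had no window in the table. At least 1 of the 8-base motifs TTTGGCGC, TTTCCCGC, TTTCGCGC and TTTGCCGC, on either strand, stood in 12 of the 32 windows (37.5%), against 2.27% of all 32851 windows and 3.82% of the 13814 windows of genes tested here. TTTGCCGC was found in none of the 32. The CCAAT box (CCAAT, either strand) stood in 19 of the 32 windows (59.4%), against 37.4% of all windows. A match describes the letters only and does not show that a factor binds there. The first match of each of the 12 windows follows, read on the named strand, with the motif in capitals.
Cdc6 (chr11:98908003-98908030, minus strand): ccccaggcgaTTTCCCGCtctccaccgg
Cdt1 (chr8:122568037-122568064, plus strand): gaactaccttTTTGGCGCcatggcgcaa
E2f2 (chr4:136172303-136172323, plus strand): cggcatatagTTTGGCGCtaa
Gins3 (chr8:95633508-95633535, minus strand): tcaaactcgcTTTCCCGCgccgcactcg
Mcm3 (chr1:20820276-20820303, plus strand): cttcccaagtTTTCCCGCcacggaagtt
Mcm5 (chr8:75109346-75109373, plus strand): cgccaagaacTTTCGCGCcaaaacgtcc
Mcm6 (chr1:128359798-128359825, minus strand): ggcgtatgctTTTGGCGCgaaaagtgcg
Mcm7 (chr5:138172031-138172058, plus strand): ggacaccctgTTTCCCGCggttcgaaat
Orc1 (chr4:108579417-108579444, minus strand): ggagaaaactTTTCGCGCcactaaccga
Pola1 (chrX:93632276-93632303, plus strand): cgggagtgcaTTTGGCGCcctgtgatga
Pold1 (chr7:44548766-44548786, plus strand): gctTTTCCCGCcacaagatac
Rfc3 (chr5:151651201-151651228, minus strand): cgtcgcacgcTTTCGCGCtcgcgggaaa

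Mcm6, a subunit of the replicative helicase, had 3 matches, the most of any window. Its 250 bases upstream of the start (chr1:128359706-128359955, minus strand), again with the matches in capitals, 2 of which overlap, are shown on the next line.
Mcm6 promoter: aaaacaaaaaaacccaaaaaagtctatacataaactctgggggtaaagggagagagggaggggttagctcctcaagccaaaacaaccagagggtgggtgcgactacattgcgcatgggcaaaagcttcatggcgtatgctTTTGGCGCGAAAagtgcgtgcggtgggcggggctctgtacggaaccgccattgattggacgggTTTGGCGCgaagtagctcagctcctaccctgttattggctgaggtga

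The libraries held 72559141 to 74172804 counts in the KO group and 68053008 to 79090732 in the WT group. Levels are given as CPM, counts relative to the library total, scaled by TMM, in comparisons of a gene between libraries, and as the deposited FPKM, which also divides by gene length, in comparisons between genes. A single count equalled 0.0127 to 0.0147 CPM, so every one of the 38 genes was measured well above the level of 3 counts (0.0382 to 0.0441 CPM), which counting error alone could leave at 0. Wild-type replicate 1 stood apart from the other libraries on the first principal component, at 83.4, with KO libraries at -42.2 to -12.8 and the other WT libraries at 1.74 and 10.9. Dclk1 had 415, 431 and 377 counts in KO libraries and 494, 498 and 584 counts in WT libraries, so it was still detected, at a fold of 0.776 by CPM (log2 fold change -0.37, SE 0.116, edgeR adjusted p = 0.332). Permuting its CPM over the libraries, two-sided and exact, gave p = 0.1, the lowest value possible with 3 against 3. Gene-level counts cannot tell if an exon is gone. Of 13 macrophage markers, the general ones Adgre1 and Cd68 were abundant in both groups. Adgre1 was at 1005 to 1031 CPM in KO and 1021 to 1083 CPM in WT libraries. Cd68 was at 1958 to 2039 CPM and 1936 to 2081 CPM. Lyz2 was the 1 macrophage marker of 13 past the threshold, at 7970 ± 42.0 CPM in KO and 16349 ± 652 CPM in WT libraries (SD, n = 3 each, edgeR adjusted p = 6.5e-06). Log2 fold changes of the 13 ran from -1.04 to 0.65, with 4 above 0 and 9 below. At an unadjusted p under 0.05 in edgeR were 1 higher and 3 lower, where 4.73% and 5.71% of all genes were. DESeq2 called 2 of the 13, both lower, where it called 3.44% of all genes in either direction.

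None of the 38 replication and S phase genes differed between KO and WT macrophages at an adjusted p under 0.05. In edgeR's quasi-likelihood fit 0 of 38 passed, where 0.0677% of all 16239 genes tested did (11 genes, of which 4, or 0.0246%, were higher and 7, or 0.0431%, lower in KO). At an unadjusted p under 0.05 there were 6 members, 2 with a higher and 4 with a lower fitted value in KO, or 15.8% of the 38, where 10.4% of all genes lay under that limit (4.73% with higher and 5.71% with lower values). Of the other tools run on all genes, DESeq2 called 2 of the 37 members it gave an adjusted p, Cdt1 and Gins2, both higher in KO, where it called 3.44% of all genes (413 of 12015). Limma on log2(FPKM + 1) called 0 of the 27 members it tested, where it called 0.0861% of all genes. It put 4 of the 27 at an unadjusted p under 0.05, and the share of all genes at that limit in limma was not computed. The fitted value was above 0 for 14 members and below 0 for 24, against 8038 and 8201 of all genes tested. The members' median log2 fold change was -0.12, against -0.0019 over all genes tested.

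The intervals describe each member's fold change alone and were not adjusted for the number of genes tested. They therefore do not give the size of difference that the adjusted test could have missed. The interval of Cdt1, 1.21 to 1.59, excluded equality, and Cdt1 still did not pass (edgeR adjusted p = 0.105). The 95% interval of the fold change lay wholly within 1.25-fold either way for 5 members, within 1.5-fold for 23 and within 2-fold for 34. Orc1, Gins2, Cdc6 and Ccne2 had intervals that reached beyond 2-fold, and 3 of these were among the members of lowest level. In 31 members the fitted fold itself was within 1.25-fold of equality. Gins2 was the 1 member with a fitted fold beyond 1.5.

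**Figure D1:**
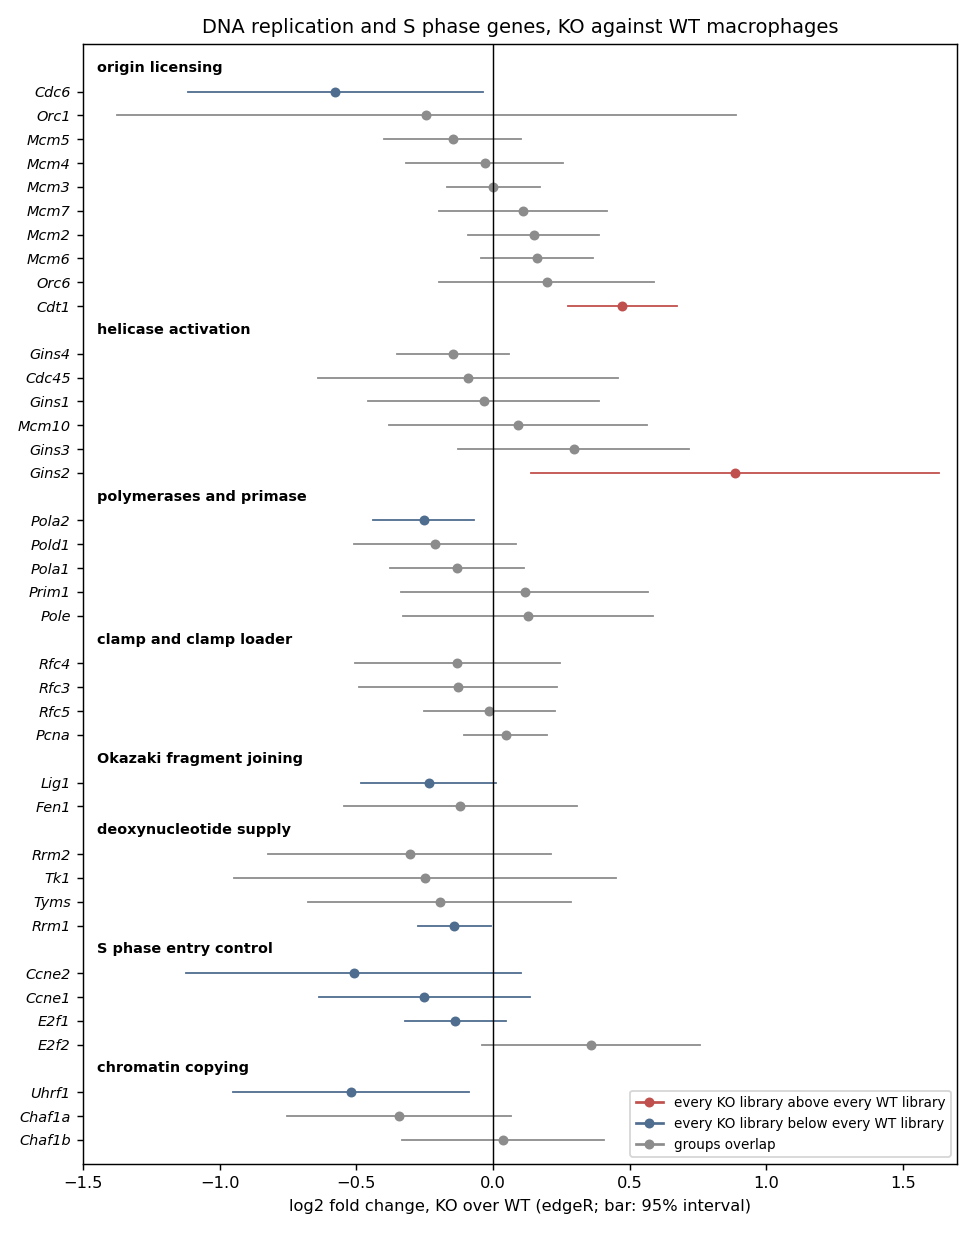
Fitted log2 fold change (KO over WT, x axis) of the 38 genes by role, with bars for the 95% interval. Red marks the 2 genes with every KO library above every WT library, blue the 8 with every KO library below every WT library and grey the 28 whose groups overlapped. None passed the adjusted threshold.

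Counted without any model, 10 members had groups that did not overlap (26.3% of the 38), where 17.6% of all genes tested did. Every KO library lay above every WT library for Cdt1 and Gins2 (5.26%, against 8.68% of all genes). The reverse held for 8 members, Cdc6, Pola2, Lig1, Rrm1, Ccne1, Ccne2, E2f1 and Uhrf1 (21.1%, against 8.89% of all genes). These members were chosen with earlier results of these data known, and these shares were not tested. Summed over the 38 genes, the level was 546 to 555 CPM in KO libraries and 533 to 570.0 CPM in WT libraries, and the ranges overlapped. Without Pcna, the most abundant, the sum was 353 to 368 CPM in KO and 357 to 371 CPM in WT libraries. In bulk RNA fewer cells in cycle and less RNA per cycling cell cannot be told apart.

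**Figure D2:**
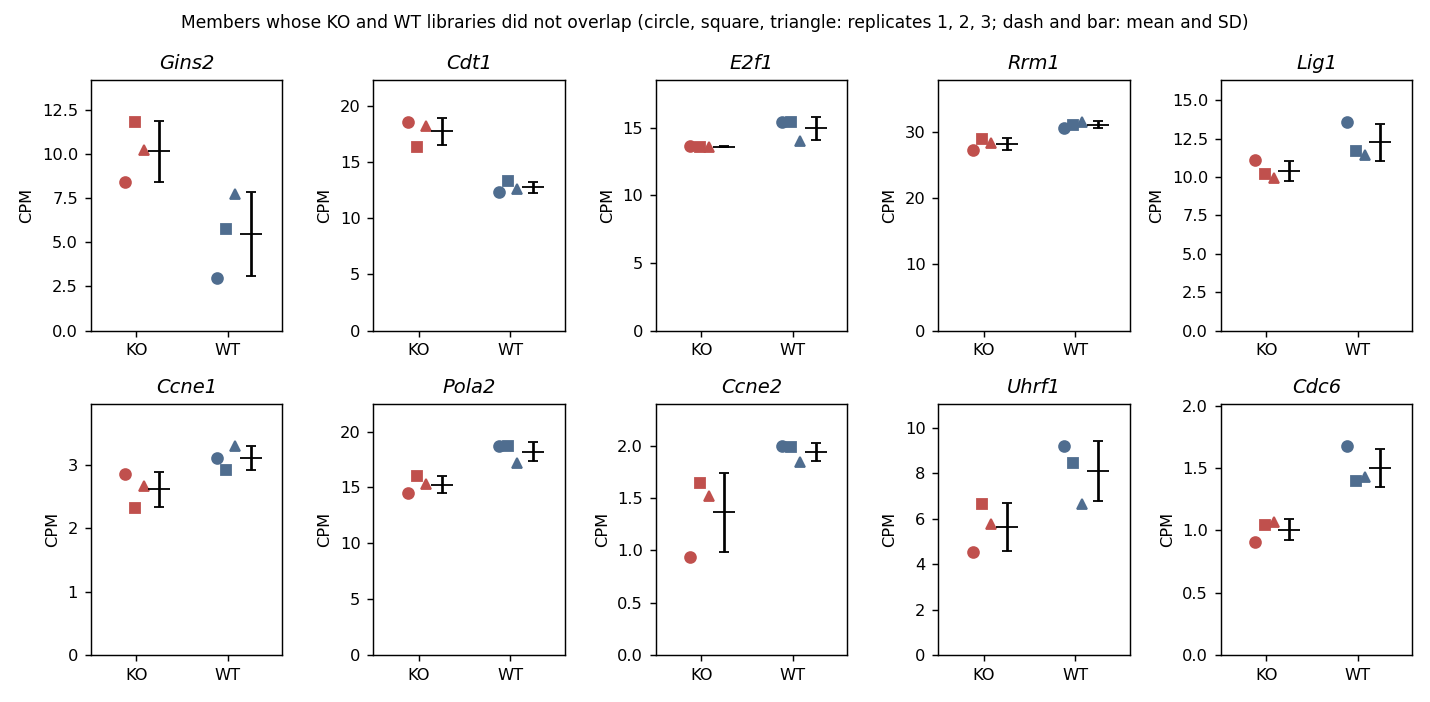
Levels in CPM (y axis, from 0) of the 10 members whose groups did not overlap, in 3 KO and 3 WT libraries, with the mean and SD beside the points. Gins2 and Cdt1 lay higher in KO and the other 8 lower, and for Uhrf1, Ccne1, E2f1 and Lig1 the nearest KO and WT libraries lay close together.

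Levels per length ran over a wide range. Pcna, the sliding clamp, stood at 71.1 ± 3.35 FPKM in KO and 68.3 ± 4.89 FPKM in WT libraries (SD, n = 3 each), above 96.5% of all genes tested. No other member reached 20 FPKM. Between 5 and 20 FPKM, averaged over the 6 libraries, were Gins4 (10.5), Mcm3 (7.28), Fen1 (6.19) and Mcm6 (6.17). A further 21 members lay between 1 and 5 FPKM and 12 lay under 1 FPKM, with Cdc6 (0.213) and Orc1 (0.180) at the bottom. The median over the 38 was 1.78 FPKM, against 2.53 FPKM over all genes tested. The deposited FPKM appear to scale with the joined length of all annotated exons, since the length they imply was 1.11 to 1.14 times that length for every member. The implied length was within 5% of the joined length for 0 of the 38, and the library total behind the FPKM is not known. For 7 members the joined length was over 2 times that of the longest coding transcript, among them Tk1, Pola2, Rrm1 and Rfc3, so their FPKM run low. Per kilobase of the longest coding transcript, Pcna was still highest, at 125 CPM per kilobase in KO and 121 in WT, and Gins4 and Mcm3 followed, while Rrm1 moved up to 7.04 and 7.76.

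**Figure D3:**
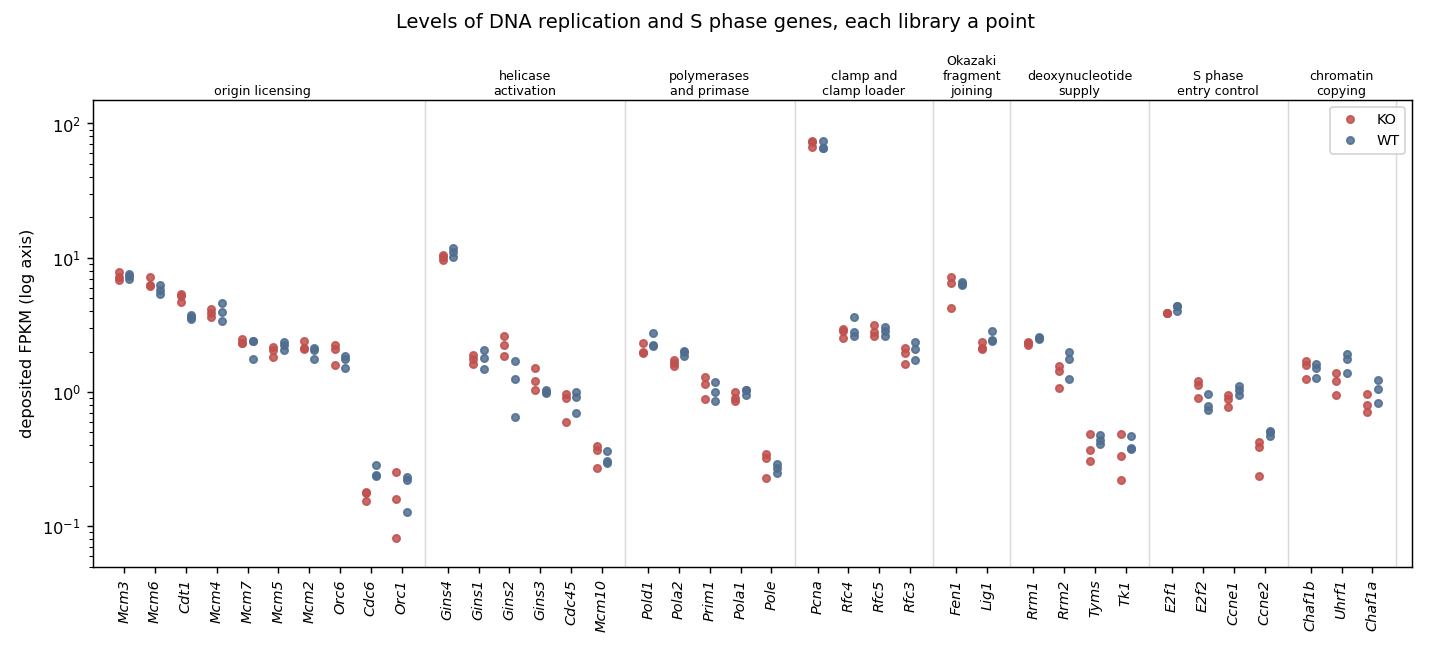
Deposited FPKM (y axis, log scale) of each of the 38 genes in 3 KO (red) and 3 WT (blue) libraries, grouped by role and ordered by level. Pcna sits near 70 FPKM and every other member below 20 FPKM, down to Orc1 and Cdc6 near 0.2 FPKM.

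Among the 10 licensing genes the fitted value was above 0 for 6 and below 0 for 4 (median log2 fold change 0.06), and the loading factors Cdt1 and Cdc6 lay on opposite sides. Cdt1 (ENSMUSG00000006585, chromosome 8, 122568015 to 122573128, plus strand), which brings the Mcm ring to the origin, was at 18.6, 16.3 and 18.2 CPM in KO libraries and at 12.4, 13.3 and 12.6 CPM in WT libraries. Each KO value lay above each WT value, with a wide gap against the spread within either group. The fold was 1.39 (95% interval 1.21 to 1.59, log2 fold change 0.47, SE 0.0847), the smallest unadjusted p of the 38 genes (0.00068, rank 106 of all genes), but it missed the threshold once adjusted for all genes (edgeR adjusted p = 0.105). DESeq2 gave an adjusted p = 0.0032. Over all alternatives the edgeR, limma and DESeq2 adjusted p ranged from 0.0032 to 0.338, and DESeq2 was the 1 of 12 under 0.05. No exon of another annotated gene overlapped Cdt1, and none of its 50-base sequences occurred in another gene's transcripts. Gmnn, which encodes the protein geminin that binds and blocks Cdt1, was at 6.59, 6.80 and 7.37 CPM in KO and 5.56, 5.24 and 5.93 CPM in WT libraries, also without overlap (edgeR adjusted p = 0.409). It was named after its values were seen.

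Cdc6 (ENSMUSG00000017499, chromosome 11, 98907801 to 98923940, plus strand), the ATPase that works with Cdt1 in loading, was at 0.909, 1.04 and 1.07 CPM in KO libraries and at 1.68, 1.4 and 1.42 CPM in WT libraries. All KO values were lower than all WT values, from 68 to 114 counts per library. The fold was 0.670 (interval 0.461 to 0.975), with an edgeR adjusted p = 0.440. Orc1, the largest subunit of the origin recognition complex, was the member least expressed, at 24, 47 and 73 counts in KO and 35, 69 and 69 counts in WT libraries. Its highest KO library held 3.11 times the CPM of its lowest, so no direction can be read from it. Orc6, another subunit, was at 5.44 ± 0.906 CPM in KO and 4.75 ± 0.503 CPM in WT libraries (SD, n = 3 each, edgeR adjusted p = 0.752).

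The subunits of the Mcm ring, which are present in equal numbers in the protein complex, differed in transcript level per length, and their groups overlapped for all 6. Mcm3 was highest, at 29.9, 32.8 and 28.6 CPM in KO and 31.5, 30.6 and 29.1 CPM in WT libraries, a fold of 1.0 (interval 0.890 to 1.13, edgeR adjusted p = 0.998). The groups lay on top of each other for this gene. Per length, Mcm3 (7.31 ± 0.514 FPKM in KO and 7.25 ± 0.288 FPKM in WT, SD, n = 3 each) and Mcm6 (6.53 ± 0.575 and 5.80 ± 0.443 FPKM) were highest. Mcm4 was at 3.90 ± 0.285 FPKM in KO and 3.95 ± 0.606 FPKM in WT, and Mcm7, Mcm5 and Mcm2 lay at 2.02 to 2.37 FPKM in KO and 1.98 to 2.22 FPKM in WT. The order below Mcm6 depends on the length used, since the joined exons of Mcm2 are over 2 times as long as its longest coding transcript. Per kilobase of that transcript Mcm2 stood at 5.07 CPM per kilobase in KO and 4.57 in WT, above Mcm4 (4.32 and 4.42), Mcm7 (3.95 and 3.66) and Mcm5 (2.65 and 2.93), while Mcm3 and Mcm6 were still highest. Fitted folds of the 6 genes ran from 0.902 for Mcm5 to 1.12 for Mcm6, with edgeR adjusted p between 0.587 and 0.998.

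Of the helicase activation genes, the fit put 3 above 0 and 3 below, around a median log2 fold change of 0.03. Gins2 (ENSMUSG00000031821, chromosome 8, 120578633 to 120589304, minus strand), a GINS subunit, had the largest fitted fold of the 38 genes. It was at 8.41, 11.8 and 10.2 CPM in KO libraries and at 2.99, 5.73 and 7.73 CPM in WT libraries. The groups did not overlap, but the WT libraries differed among themselves by 2.59 times, the widest WT spread of any member. The fold was 1.85 (interval 1.10 to 3.10, log2 fold change 0.89, SE 0.319), with an edgeR adjusted p = 0.389 and a DESeq2 adjusted p = 0.044. Without wild-type replicate 1, the lowest, the log2 fold change was 0.59 (edgeR adjusted p = 0.481).

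The Gins2 counts are uncertain, because 2758 of its 4097 exonic bases (GENCODE M21) lie opposite exons of Gse1 on the other strand, and no source used here says if counting was stranded. Gse1 itself was at 32.7, 34.9 and 35.5 CPM in KO and 36.2, 33.2 and 36.7 CPM in WT libraries (edgeR adjusted p = 0.888). Its level was thus several times that of Gins2, and its groups overlapped. The part of shared reads in the Gins2 difference was not tested.

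The other GINS subunits had fitted folds on both sides of equality. Gins4, the most abundant, was at 14.3, 15.6 and 15.1 CPM in KO and 16.5, 18.0 and 15.3 CPM in WT libraries, a fold of 0.904 (interval 0.784 to 1.04, edgeR adjusted p = 0.631). Its highest KO library lay just above its lowest WT library. Gins1 had a fold of 0.976 and Gins3 a fold of 1.23, with intervals from 0.727 to 1.31 and from 0.915 to 1.64. Per length, Gins4 (10.0 ± 0.419 FPKM in KO and 11 ± 0.831 FPKM in WT, SD, n = 3 each) stood far above Gins1 (1.75 ± 0.144 and 1.78 ± 0.280 FPKM) and Gins3 (1.25 ± 0.242 and 1.01 ± 0.0241 FPKM). Cdc45, which completes the active helicase with GINS, was at 3.23 ± 0.780 CPM in KO and 3.44 ± 0.597 CPM in WT libraries, and Mcm10, which helps it start, at 3.01 ± 0.580 and 2.82 ± 0.309 CPM. Their edgeR adjusted p was 0.930 and 0.920, with wide intervals of 0.641 to 1.37 and 0.768 to 1.48.

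Of the 5 polymerase and primase genes, 2 had a fitted value above 0 and 3 below. Pola2 (ENSMUSG00000024833, chromosome 19, 5940542 to 5964202, minus strand), the accessory subunit of the polymerase alpha that lays down primers with primase, was at 14.5, 16.0 and 15.3 CPM in KO libraries and at 18.7, 18.7 and 17.2 CPM in WT libraries. Every KO library was below every WT library, and the spread within each group was narrow. The fold was 0.838 (interval 0.738 to 0.953, SE 0.0788 on the log2 scale), with an edgeR adjusted p = 0.316. Pola1, the catalytic subunit of the same enzyme, was at 9.05 ± 0.730 CPM in KO and 9.92 ± 0.527 CPM in WT libraries (SD, n = 3 each), with overlapping groups. Prim1, the small primase subunit, had a fold of 1.08 (interval 0.792 to 1.48). Pold1, the catalytic subunit of the lagging strand polymerase delta, was at 10.5, 10.8 and 12.5 CPM in KO and 12.1, 15.2 and 12 CPM in WT libraries (fold 0.863, edgeR adjusted p = 0.630). Its overlap came from KO replicate 3. Pole, the leading strand polymerase epsilon, had a fold of 1.09 (interval 0.796 to 1.5).

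Pcna gave the most tightly bounded comparison together with Mcm3 and Rrm1. It was at 196, 179 and 192 CPM in KO libraries and at 175, 199 and 175 CPM in WT libraries, from 11883 to 14825 counts. The groups overlapped and the highest library was a WT one. The fold was 1.03 (interval 0.930 to 1.15, edgeR adjusted p = 0.867). A processed copy of the gene, Pcna-ps2, shares part of the 19.1% of 50-base Pcna sequences found in other transcripts, but held only 1.09 CPM in KO and 1.62 CPM in WT libraries. The subunits of replication factor C, which opens the clamp and sets it on DNA, had folds of 0.915 for Rfc3, 0.913 for Rfc4 and 0.991 for Rfc5 (edgeR adjusted p = 0.839, 0.840 and 0.982).

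Fen1 and Lig1 trim and seal the short fragments of the lagging strand. Fen1, the flap nuclease, was at 19.2, 17.5 and 11.3 CPM in KO and 17.3, 17.8 and 17.1 CPM in WT libraries. KO replicate 3 alone lay low, and the fold of 0.921 (interval 0.685 to 1.24) turned to a log2 fold change of 0.08 without that library. Of the Fen1 exonic bases, 1909 lie opposite Gm10143 (0.122 CPM in KO and 0.0797 CPM in WT). A further 130 lie opposite Tmem258, whose level was not computed here. Lig1 (ENSMUSG00000056394, chromosome 7, 13277283 to 13311433, plus strand), DNA ligase I, was at 11.1, 10.2 and 9.91 CPM in KO libraries and at 13.6, 11.7 and 11.4 CPM in WT libraries. The groups did not overlap, by a narrow margin between KO replicate 1 and WT replicate 3. The fold was 0.849 (interval 0.715 to 1.01, edgeR adjusted p = 0.50).

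All 4 genes of deoxynucleotide supply were fitted below 0 (median log2 fold change -0.22), as were 8201 of all 16239 genes, and none of the 4 passed. Rrm1 (ENSMUSG00000030978, chromosome 7, 102441695 to 102469771, plus strand), the large subunit of ribonucleotide reductase, was at 27.2, 28.9 and 28.3 CPM in KO libraries and at 30.5, 31.1 and 31.5 CPM in WT libraries. The groups were separate and narrow, and the fold of 0.906 (interval 0.826 to 0.995) was close to equality (edgeR adjusted p = 0.446). Rrm2, the subunit whose level is known to follow the cell cycle, was at 4.17 ± 0.788 CPM in KO and 5.16 ± 1.16 CPM in WT libraries (SD, n = 3 each), with overlap and a fold of 0.809 (interval 0.565 to 1.16). Tyms, which makes thymidylate, had a fold of 0.873 (interval 0.626 to 1.22). Tk1, the thymidine kinase of S phase, had a fold of 0.842 (interval 0.519 to 1.37), and its KO libraries spread from 1.30 to 2.86 CPM.

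Of the 4 genes of S phase entry, 3 (E2f1, Ccne1 and Ccne2) had every KO library below every WT library by CPM, as did 8.89% of all genes, and the groups of Ccne1 overlapped in the deposited FPKM. E2f2 was fitted above 0, with overlap. E2f1 (ENSMUSG00000027490, chromosome 2, 154559407 to 154569892, minus strand), an activating E2F, was at 13.6 CPM in each of the 3 KO libraries and at 15.5, 15.4 and 14.0 CPM in WT libraries, a fold of 0.909 (interval 0.799 to 1.03, edgeR adjusted p = 0.615). Ccne1 (chromosome 7, 38097984 to 38107534), a cyclin E that drives entry into S phase with Cdk2, was at 2.86, 2.32 and 2.67 CPM in KO and 3.12, 2.92 and 3.31 CPM in WT libraries (edgeR adjusted p = 0.662). Ccne2 (chromosome 4, 11191351 to 11204779), its paralog, was at 0.936, 1.64 and 1.52 CPM in KO and 2.0, 1.99 and 1.84 CPM in WT libraries (fold 0.702, interval 0.459 to 1.07, edgeR adjusted p = 0.557). KO replicate 1 was by far the lowest for Ccne2. Exons of Ints8 lie opposite 609 bases of Ccne2, and Ints8 was at 23.0 CPM in KO and 23.8 CPM in WT libraries. E2f2 had 6.09, 6.51 and 4.88 CPM in KO and 4.02, 5.30 and 4.32 CPM in WT libraries (fold 1.28, interval 0.973 to 1.69, edgeR adjusted p = 0.531).

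The 3 genes of chromatin copying were fitted on both sides of equality. Uhrf1 (ENSMUSG00000001228, chromosome 17, 56303321 to 56323486, plus strand), which brings the maintenance methyltransferase to newly copied DNA, was at 4.54, 6.63 and 5.75 CPM in KO libraries and at 9.21, 8.44 and 6.65 CPM in WT libraries. The groups barely missed each other at KO replicate 2 and WT replicate 3, and overlapped in the deposited FPKM. The fold was 0.697 (interval 0.517 to 0.940, log2 fold change -0.52, SE 0.184, edgeR adjusted p = 0.379). Chaf1a and Chaf1b, subunits of the chromatin assembly factor that places histones behind the fork, had folds of 0.788 (interval 0.593 to 1.05) and 1.03 (interval 0.793 to 1.33). Chaf1b was at 6.50, 8.90 and 8.26 CPM in KO and 7.87, 8.57 and 6.64 CPM in WT libraries. Exons of Ubxn6 lie opposite 4648 of the exonic bases of Chaf1a, so its counts are uncertain.

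No library was high or low throughout. The median deviation of the members from their mean over 6 libraries was -0.01, -0.03 and -0.01 on the log2 scale in KO replicates 1, 2 and 3, and 0.04, 0.09 and -0.0059 in WT replicates 1, 2 and 3. Each library was the highest of the 6 for at least 2 members, and the counts were 8, 8 and 2 members in KO and 10, 6 and 4 in WT libraries. KO replicate 1 was the lowest of the 6 for 13 members, the most of any library. The S phase entry genes had medians below 0 in all 3 KO libraries (-0.08 to -0.02) and above 0 in all 3 WT libraries (0.08 to 0.12). Deoxynucleotide supply likewise had medians of -0.25 to -0.05 in KO and 0.01 to 0.28 in WT libraries. Chromatin copying had medians of -0.25 to -0.013 in KO and -0.0086 to 0.34 in WT libraries, a narrow gap. These medians rest on 4, 4 and 3 genes in that order. How often other gene groups of such size separate was not computed, so they have no baseline. The medians of licensing, helicase activation, polymerases and primase, clamp and clamp loader, and Okazaki fragment joining overlapped between the groups.

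**Figure D4:**
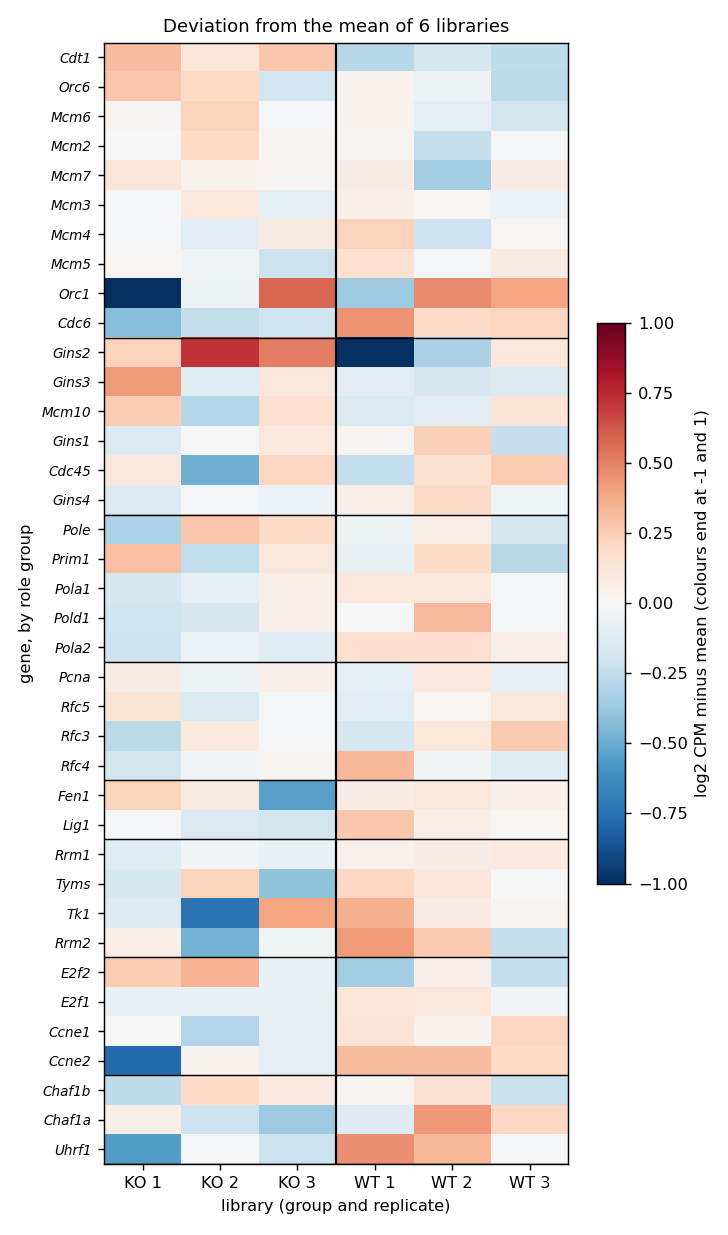
Deviation of log2 CPM from the mean of the 6 libraries for each of the 38 genes (rows, by role) in KO replicates 1 to 3 and WT replicates 1 to 3 (columns). Red is above and blue below the mean, and genes of 1 complex can differ in sign, as Gins2 and Gins4 do in WT replicate 1.

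Other genes of the pathway, from lists written with the tests, showed no call in edgeR either. For the counts that follow, 10.4% of all genes lay at an unadjusted p under 0.05 in edgeR (4.73% higher, 5.71% lower) and DESeq2 called 3.44%. Of 47 further genes of the replication machinery, 0 passed in either direction in edgeR and 0 in DESeq2, and 5 lay at an unadjusted p under 0.05 (3 higher, 2 lower), with a median log2 fold change of -0.02. Dnmt1, the methyltransferase that Uhrf1 recruits, was at 306 CPM in KO and 286 CPM in WT libraries (edgeR adjusted p = 0.386), and Dscc1, part of a clamp loader, at 0.144 and 0.432 CPM (0.390). Of 33 further genes of S phase entry control, 0 passed in edgeR and 5 lay at an unadjusted p under 0.05 (2 higher, 3 lower). DESeq2 called 1 of them lower, Tfdp2, the E2F partner, which was at 0.723 CPM in KO and 1.95 CPM in WT libraries (edgeR adjusted p = 0.261). Cdkn2b, an inhibitor of the G1 kinases, was at 2.18 and 3.62 CPM (edgeR adjusted p = 0.290). Of 28 further genes of nucleotide metabolism, 0 passed in either tool and 1 had an unadjusted p under 0.05, Dut, which removes dUTP, at 1.87 CPM in KO and 2.63 CPM in WT libraries (edgeR adjusted p = 0.441). Samhd1, which breaks down deoxynucleotides in resting macrophages, was at 241 and 259 CPM (0.499). Of 15 genes of the replication stress response, 0 passed in either tool and 1 had an unadjusted p under 0.05, Rad1, a checkpoint clamp subunit, at 3.72 and 5.54 CPM (edgeR adjusted p = 0.213). Wee1, a checkpoint kinase, was at 9.90 and 11.8 CPM (0.495).

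Mitosis markers, measured in the same libraries, had lower summed levels in KO. Of 20 markers 19 were fitted below 0 (median log2 fold change -0.28), as were 8201 of all 16239 genes. In edgeR 0 passed, and 5, all lower, lay at an unadjusted p under 0.05, as did 5.71% of all genes. DESeq2 called 1 of the 20, Bub1b, and 3.44% of all genes. Their summed level was 130 to 132 CPM in KO and 151 to 177 CPM in WT libraries, without overlap, while the sums of the 38 S phase genes overlapped. Bub1b, a spindle checkpoint kinase, was at 22.0 CPM in KO and 29.4 CPM in WT libraries (edgeR adjusted p = 0.0833), and Top2a, which untangles copied chromosomes, at 13.7 and 17.4 CPM (0.273). The difference between the 2 lists was not tested.

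Markers of other cells were summed in each library, and 3 of the 4 lists had lower sums in every KO library. Summed T and NK cell markers stood at 15.4 to 17.3 CPM in KO and 20.2 to 25.3 CPM in WT libraries (0 of 9 tested passed), with the NK marker Ncr1 at 0 in 5 of 6 libraries. The smallest p among them were those of Cd3g, at 1.12 CPM in KO and 2.13 CPM in WT (edgeR adjusted p = 0.154), and Trbc2, at 1.33 and 2.58 CPM (0.185). Fibroblast and mesothelial markers summed to 72.1 to 85.7 CPM in KO and 97.8 to 101 CPM in WT libraries (0 of 10 passed in edgeR and 2 in DESeq2, both lower). DESeq2 called 3.44% of all genes. Among them Pdgfra was at 10.2 CPM in KO and 15 CPM in WT (edgeR adjusted p = 0.0994) and Dcn at 11.7 and 16.3 CPM (0.102). Neutrophil and mast cell markers summed to 22.8 to 26.3 CPM in KO and 28.3 to 30.9 CPM in WT libraries (0 of 5 tested passed), with Ly6g at 0 in all 6 libraries. Cma1 was at 0.619 CPM in KO and 1.28 CPM in WT (edgeR adjusted p = 0.285) and S100a8 at 21.6 and 24.6 CPM (0.433). S100a8 alone thus made up most of that sum. B cell markers summed to 56.4 to 68.5 CPM in KO and 65.5 to 81.1 CPM in WT libraries (0 of 6 tested passed), and Cd22 made up nearly all of that sum, at 58.9 CPM in KO and 72.2 CPM in WT (edgeR adjusted p = 0.355). The other 5 B cell markers tested were fitted above 0, so that the list's median log2 fold change was 0.90, and Pax5 was at 0.212 CPM in KO and 0.107 CPM in WT (0.685). At an unadjusted p under 0.05 in edgeR were 4 T and NK cell and 3 fibroblast and mesothelial markers. At the same limit were 2 neutrophil and mast cell markers and 1 B cell marker. All were lower, as were 5.71% of all genes. Every KO library lay below every WT library for 4, 4, 2 and 0 markers in that order, and for 8.89% of all genes. The reverse held for 1 B cell marker and 8.68% of all genes. The part of these other cells in the values of the replication genes was not tested.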

How the data were processed

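Per the labels' protocols, libraries of poly(A) RNA were read from both ends (Illumina NovaSeq), and the submitters' processing notes name HISAT2 2.0. Counting tool, annotation, build and strandedness were not given in the sources used here. The deposited table holds, per the file headers, a count and an FPKM (scaled for gene length and library size by the authors) for each gene and library. Of its per-sample columns, 12 bear names that fit no sample and stayed out. Coordinates are as deposited and taken as GRCm38, since 24511 of 27169 IDs found in GENCODE M21 have the same ones there, 33 of the 38 members among them.

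Groups follow the titles. Counts were filtered by filterByExpr, scaled by TMM and tested two-sided with edgeR 4.0.16 quasi-likelihood fits (R 4.3.3, genotype as the only term, Benjamini-Hochberg over 16239 genes, threshold 0.05). CPM use the TMM-scaled totals, each SD is over 3 libraries, folds are KO over WT, and an SE is the log2 fold change over the root of its F statistic. Intervals of folds are at the 95% level. Between libraries of 1 group the chi-square over its degrees of freedom was 30.5 to 35.6, so none was counted as a duplicate. Alternatives were no filter, RLE factors, DESeq2 1.42.0, limma 3.58.1 on log2(FPKM + 1) or log2(FPKM + 0.1) over genes that reach FPKM 1 in 3 or more libraries, the replicate number as a block, and each library left out. The edgeR step was tested on simulated data. Shared reads were sought as 50-base sequences and overlapping exons in GENCODE M21. Exons of 13 members overlap exons of other genes, so counts beyond those of Gins2, Fen1, Ccne2 and Chaf1a may also hold shared reads. Wsb2 (367 CPM in KO and 355 CPM in WT) lies opposite 499 bases of Rfc5, and Vps35 (402 and 381 CPM) opposite 171 of Orc6. Eif4a2 (132 and 127 CPM) lies opposite 194 bases of Rfc4, and Ufd1 (44.2 and 42.8 CPM) opposite 209 of Cdc45. The others are Orc1, Mcm7, Pole, Lig1 and Tk1, and the part of shared reads was not tested.

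The members, gene lists and tests were chosen with earlier results of these data known. All 38 members are named. Values in every library are given where groups did not overlap or the gene was highest in its role by FPKM, and for E2f2, Orc1 and Gse1, chosen after their values were seen. Each other list gives up to 4 members past the threshold, or else the 2 of smallest unadjusted p.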

Additional observations from a re-analysis of the deposited data

How the results depend on the processing

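In edgeR 0 of the 38 members passed without a filter, with RLE factors, with the replicate block and without each library in turn (0 to 0), and 0 passed in both limma fits, against 2 in DESeq2. The count over all genes, 11, was 7 without a filter, 413 in DESeq2, 7 in limma on log2(FPKM + 0.1), 3 with the replicate block and 7 to 35 without 1 library, lowest without WT replicate 1 and highest without KO replicate 1, with 24 without WT replicate 2. The members' median log2 fold change of -0.12 was -0.0105 in limma on log2(FPKM + 1) and -0.0130 on log2(FPKM + 0.1), which tested 27 members (edgeR median of the same 27, -0.03), and -0.13 to -0.0780 without 1 library. Non-overlapping members numbered 6 of those 27 by FPKM, and 13 to 15 without 1 library, where 2 libraries meet 3. The share of all genes was not computed for FPKM or for 2 against 3, so these counts have no baseline. Of 38 fitted folds, that of Mcm3 changed sign without a filter (-0.00068) and with the replicate block (-0.00085). Leaving out 1 library turned the sign of Orc1 (-0.68 to 0.0829), Mcm3 (-0.0598 to 0.0440), Mcm4 (-0.13 to 0.0829), Mcm7 (-0.0177 to 0.18), Mcm10 (-0.0189 to 0.24), Cdc45 (-0.23 to 0.0899), Gins1 (-0.15 to 0.0833), Prim1 (-0.0128 to 0.25), Rfc4 (-0.22 to 0.0146), Rfc5 (-0.0877 to 0.0443), Fen1 (-0.27 to 0.0789) and Chaf1b (-0.0643 to 0.16). Deviations of same-numbered libraries correlated by 0.02 to 0.05, and those of differently numbered ones by -0.04 to 0.02. KO replicate 2 correlated more with WT replicate 3 than with its own number. Values this small, from means of 3 libraries, cannot tell whether the replicate numbers pair the libraries. Counting error was below the spread between libraries for most members, but Orc1, Cdc6 and Ccne2 held under 150 counts per library.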

Other observations

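Cdt1 and Gins2, the 2 members with every KO library above every WT library, lie 1.98 Mb apart on chromosome 8. Between them, from 120589305 to 122568014, 29 genes were tested. The fit put 8 of these above 0 and 21 below (median log2 fold change -0.13), against 8038 and 8201 of all genes. None of the 29 lay above WT in every KO library, 4 lay below and 0 passed in edgeR, with 2 at an unadjusted p under 0.05. Of all genes tested 8.68% lay above, 8.89% lay below and 10.4% had such a p. The region was chosen after its values were seen, and the values are a description only. Chromosome 8 carries 6 of the 38 members, and the other 4 there, Orc6, Gins3, Gins4 and Mcm5, had folds of 1.15, 1.23, 0.904 and 0.902.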
